A study of Mus musculus with 21 samples.

Results

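Glucose uptake, glycolysis and lactate handling were followed through 38 named genes in mouse choroid plexus and hypothalamus. The genes were taken as a fixed list by symbol, and all 38 were found among the 25239 gene symbols of each expression table. They comprise 6 sugar transporters, 2 hexokinases, 3 phosphofructokinases, 2 PFKFB enzymes, 2 aldolases, 2 enolases, 6 glycolytic steps carried by a single listed gene, 2 lactate dehydrogenase subunits, 4 monocarboxylate transporters, 3 genes of pyruvate dehydrogenase, 4 pyruvate dehydrogenase kinases and 2 enzymes of the pentose phosphate pathway. Messenger RNA was measured by bulk RNA sequencing of whole tissue from C57BL/6J mice of wild-type genotype.

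There were 4 groups. Ins2, which encodes one of the mouse insulins, was overexpressed within choroid plexus in the treated mice, and 6 samples were choroid plexus of such mice and 5 of control mice. A further 5 samples were hypothalamus of treated mice, in which the overexpression was likewise within choroid plexus, and 5 were hypothalamus of controls. The labels call the controls untreated, while the column names of the hypothalamus controls carry a GFP prefix, so what those mice received is unclear. The sources used here give neither the way Ins2 was delivered nor the age and sex of the mice. Nothing states that replicates came from separate animals, so a p-value reflects only the spread among these samples, which may be technical. The choroid plexus is the epithelium of the brain ventricles that makes cerebrospinal fluid, and the hypothalamus is a brain region of neurons and glia that controls feeding and hormones.

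Cells take up glucose through transporters of the Slc2a (GLUT) family, trap it with a hexokinase and split it in glycolysis, which ends in pyruvate. Pyruvate either enters mitochondria through pyruvate dehydrogenase, which pyruvate dehydrogenase kinases switch off, or is turned into lactate by lactate dehydrogenase and leaves through monocarboxylate transporters of the Slc16a family. Several of these steps can be carried by alternative genes, and neurons, astrocytes and epithelia are known to choose among them differently. Insulin is known in muscle and fat for moving the transporter encoded by Slc2a4 to the cell surface, and in liver for inducing glycolytic enzymes.

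Libraries held 25.95 M to 36.3 M reads in genes in choroid plexus and 27.4 M to 62.1 M in hypothalamus, with M for 1000000. Ins2 itself was at 598 to 1040 size-factor-scaled reads in the 6 Ins2 choroid plexus libraries and at 387 to 501 in the 5 controls, with no overlap. In hypothalamus 9 libraries held 0 reads of Ins2 and Ins2 replicate 4 held 5. The tissue labels matched their markers: 10 genes of choroid plexus epithelium summed to 4740000 to 5460000 scaled reads in choroid plexus and to 8710 to 10000 in hypothalamus, while 11 neuronal genes summed to 1220 to 1690 and to 180000 to 193000. Control choroid plexus replicate 2 stood apart. Its 11 oligodendrocyte and myelin genes summed to 54800 scaled reads, against 2540 to 5920 in the other 10 choroid plexus libraries, and its 10 astrocyte genes to 16600 against 7900 to 11000.

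The choice among alternative genes was compared between the control tissues. It was measured as a gene's percentage of its family, computed within each library from reads per kilobase of exon, so that library scaling cancels. By mean share, Hk1, Pfkm, Pfkfb2, Aldoa, Ldhb and Pdk2 led their families in both tissues. The leading gene differed for the sugar transporters, the enolases and the monocarboxylate transporters. How often shares differ in other gene families was not examined. In control choroid plexus the transporter Slc2a12 (GLUT12) made up 74.5% ± 0.325 (SD, n = 5) of the reads of the 6 sugar transporters and Slc2a1 (GLUT1, the transporter of the blood-brain barrier and of most cells) 19.7% ± 0.372. In control hypothalamus Slc2a1 led with 45.0% ± 2.22 (n = 5), followed by Slc2a3 (GLUT3, the main neuronal glucose transporter) with 22.4% (20.8% to 23.2%) and Slc2a13, a proton-coupled myo-inositol transporter of the family, with 17.3% ± 1.48. Slc2a12 was 1.79% ± 0.336 there. The hypothalamus order rests on gene length: without division by it Slc2a3 had 31.5% and Slc2a1 30.6%, with Slc2a3 ahead in 4 of 5 libraries. These differences are described without a test, because the tissues were scaled in separate tables and tissue and library preparation cannot be told apart.

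**Figure D1:**
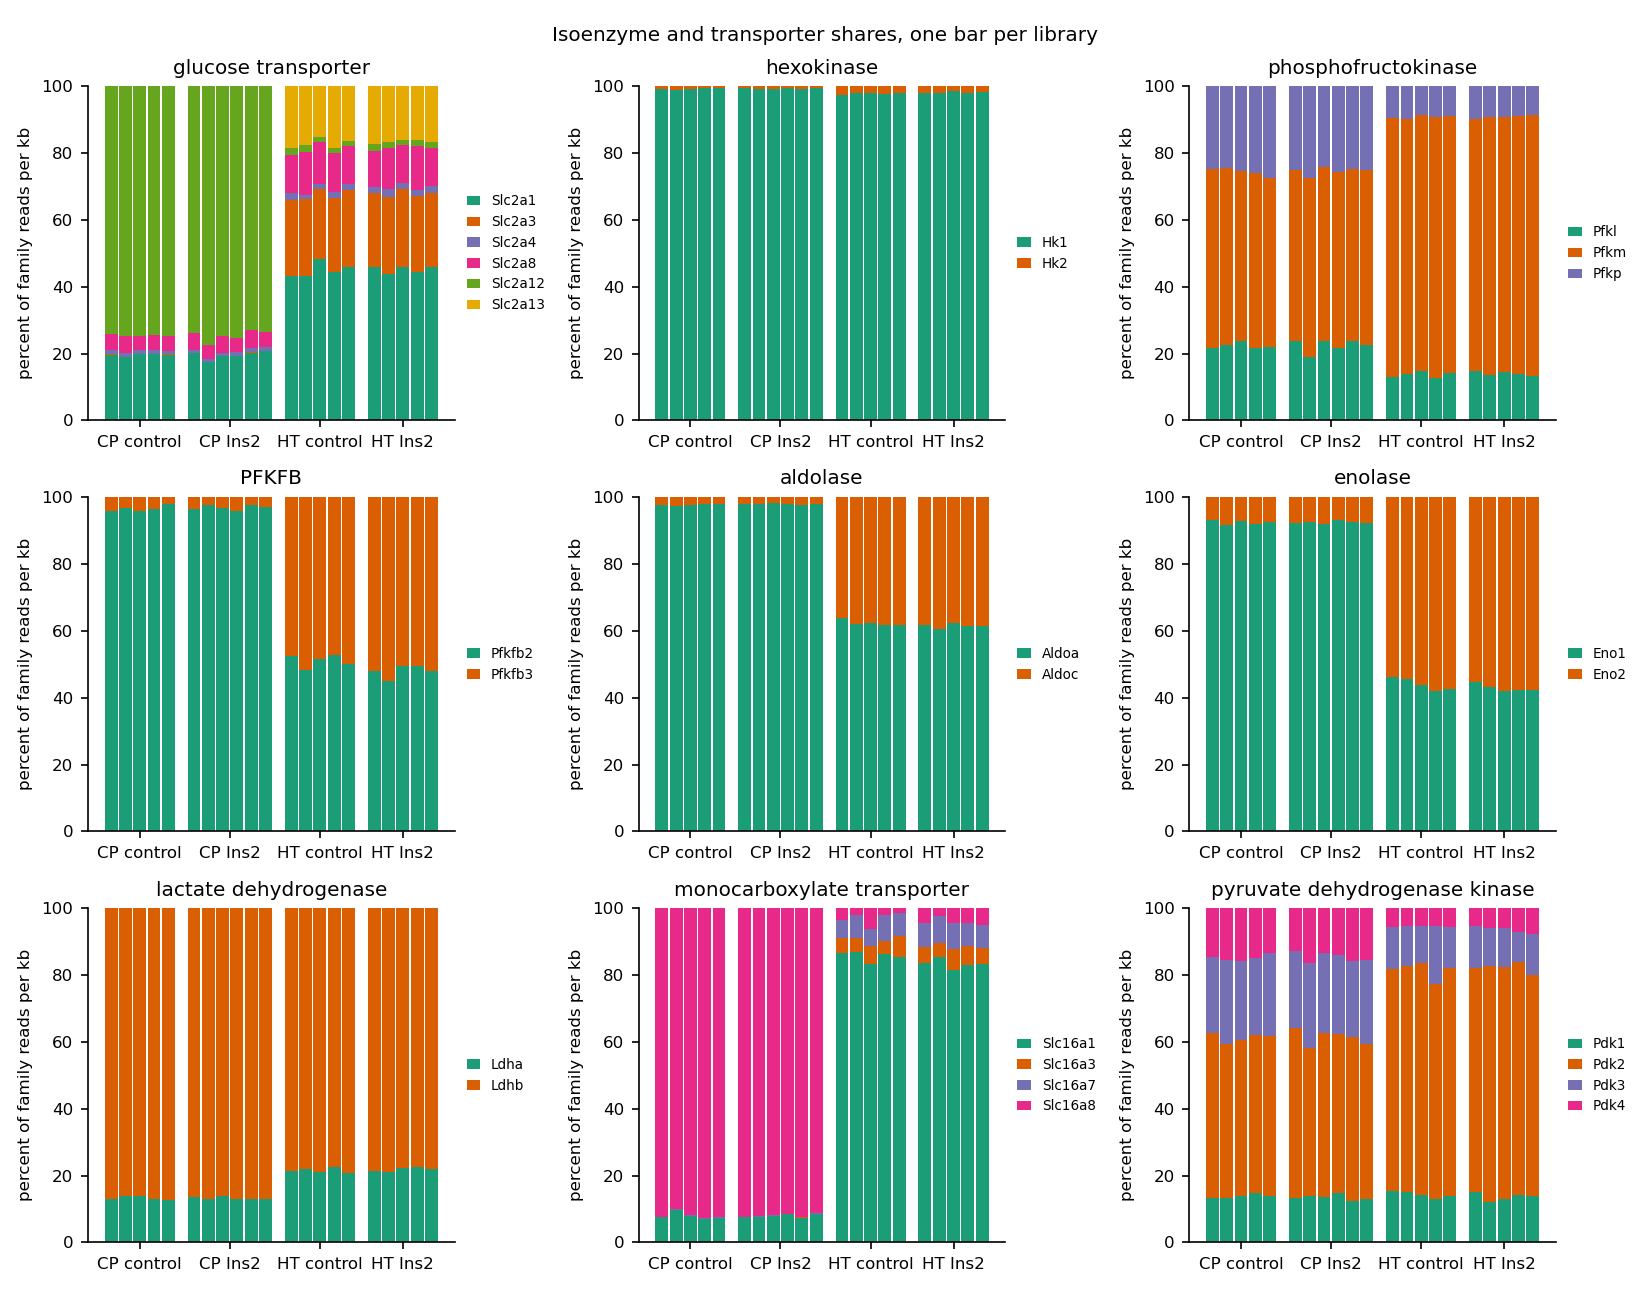
Percent of each family's reads per kilobase of exon (vertical axis) carried by each of its genes (colours) in 9 families, with 1 stacked bar per library, grouped into control and Ins2 choroid plexus (CP) and control and Ins2 hypothalamus (HT). Slc2a12 and Slc16a8 fill most of their families in every choroid plexus library, while Pfkfb3, Aldoc and Eno2 have larger shares in hypothalamus.

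Levels of single genes were compared per kilobase of exon and per M reads in genes, written here as reads per kb per M. In bulk tissue, fewer cells of a type and less RNA per cell cannot be told apart. Ttr, the transthyretin of the choroid plexus, took 10.7% to 13.0% of all choroid plexus reads and at most 0.000102% of hypothalamus reads, and these reads are part of each library's total. Of 16899 genes with a mean of at least 10 in a tissue, 77.6% had control ranges in reads per M that did not overlap between the tissues, so a separation is the usual case. Among the 38 genes, 15 were higher in choroid plexus, 17 were higher in hypothalamus and 6 overlapped, and 22 were within 2-fold. Over all 16899 genes, 4078 were higher in choroid plexus, 9031 were higher in hypothalamus and 3790 overlapped, and 7175 were within 2-fold. Differences of more than 10-fold were found in 719 of them toward choroid plexus and in 2891 toward hypothalamus. Among the 38 they were those of Slc2a12 and Slc16a8 toward choroid plexus, and of Slc2a3, Slc2a13, Slc16a3, Aldoc, Pfkfb3 and Eno2 toward hypothalamus. The share of members over 10-fold is near that of all genes, so their number is not a result about these genes.

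Among the transporters, Slc2a12 (chr10:22645011-22704285 in GRCm38, plus strand) was at 173 to 188 reads per kb per M in the 5 control choroid plexus libraries and at 1.12 to 1.66 in control hypothalamus, a ratio of 129 in means. About 9.61% of its exon bases lie opposite exons of Tbpl1, and whether counting used strand is not given. Slc2a3 ran the other way, at 0.00995 to 0.0818 in choroid plexus and 16.4 to 18.5 in hypothalamus. Its choroid plexus level came from few reads, since the scaled values were 17.5, 9.47, 2.17, 2.97 and 9.71 in control replicates 1 to 5. Slc2a13 was at 0.032 to 0.159 in choroid plexus and 12.3 to 13.8 in hypothalamus. Slc2a1 was closer, at 44.1 to 50.4 in choroid plexus and 31.4 to 39.6 in hypothalamus, with no overlap. Slc2a8, a largely intracellular transporter, overlapped between the tissues in reads per M, at 10.1 to 11.9 and 8.39 to 10.2 reads per kb per M. Slc2a4, the insulin-responsive transporter, was low in both, at 2.33 to 3.08 in choroid plexus and 0.875 to 1.39 in hypothalamus.

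Among the genes of the entry steps of glycolysis, Hk1 was close between the tissues. Pfkfb3 differed most, with a ratio of 16.5 in reads per M toward hypothalamus. Hk1, the hexokinase of brain and most other tissues, made up 99.2% ± 0.256 of the hexokinase reads in control choroid plexus and 97.7% ± 0.231 in control hypothalamus, and its level overlapped between them, at 44.4 to 48.8 and 42.8 to 48.9 reads per kb per M. Hk2, the hexokinase of muscle and fat, stayed at or below 1.22 in both. Phosphofructokinase makes the first committed step. The muscle-type gene Pfkm made up 52.1% ± 1.34 of the family in choroid plexus and 77.0% ± 0.712 in hypothalamus, and the platelet-type gene Pfkp 25.6% ± 1.22 and 9.34% ± 0.422. The choroid plexus order rests on the gene length used, because Pfkp, with 13401 bases of merged exons, had more reads (351 per M) than Pfkm (178 per M), and Pfkm made up 26.1% when reads were not divided by length. PFKFB enzymes set fructose 2,6-bisphosphate, the activator of phosphofructokinase. Choroid plexus used Pfkfb2 for 96.5% ± 0.858 of this pair, whereas in hypothalamus Pfkfb2 and Pfkfb3 were at 51.1% ± 1.85 and 48.9% ± 1.85. Pfkfb3 was at 0.287 to 0.553 reads per kb per M in choroid plexus and 6.74 to 7.99 in hypothalamus.

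Aldolase and enolase showed a brain-type second gene in hypothalamus. Aldoc, the brain aldolase that is high in astrocytes, was at 9.7 to 12.2 reads per kb per M in control choroid plexus and 302 to 360 in control hypothalamus, and made up 2.35% ± 0.274 and 37.8% ± 0.942 of the aldolase pair. The highest choroid plexus value, 12.2, was in replicate 2, the library with high astrocyte and myelin genes. Aldoa, the aldolase of muscle and most tissues, was at 421 to 484 and 528 to 577. Eno2, the neuronal enolase, was at 16.3 to 18.6 in choroid plexus and 194 to 216 in hypothalamus. Its share was 7.62% ± 0.65 against 55.9% ± 1.8, but with the longest coding transcript as length Eno1 led in hypothalamus, at 55.4%. Eno1 counts are uncertain, since the near-identical copy Eno1b held up to 3071 scaled reads in choroid plexus and 2868 in hypothalamus.

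**Figure D2:**
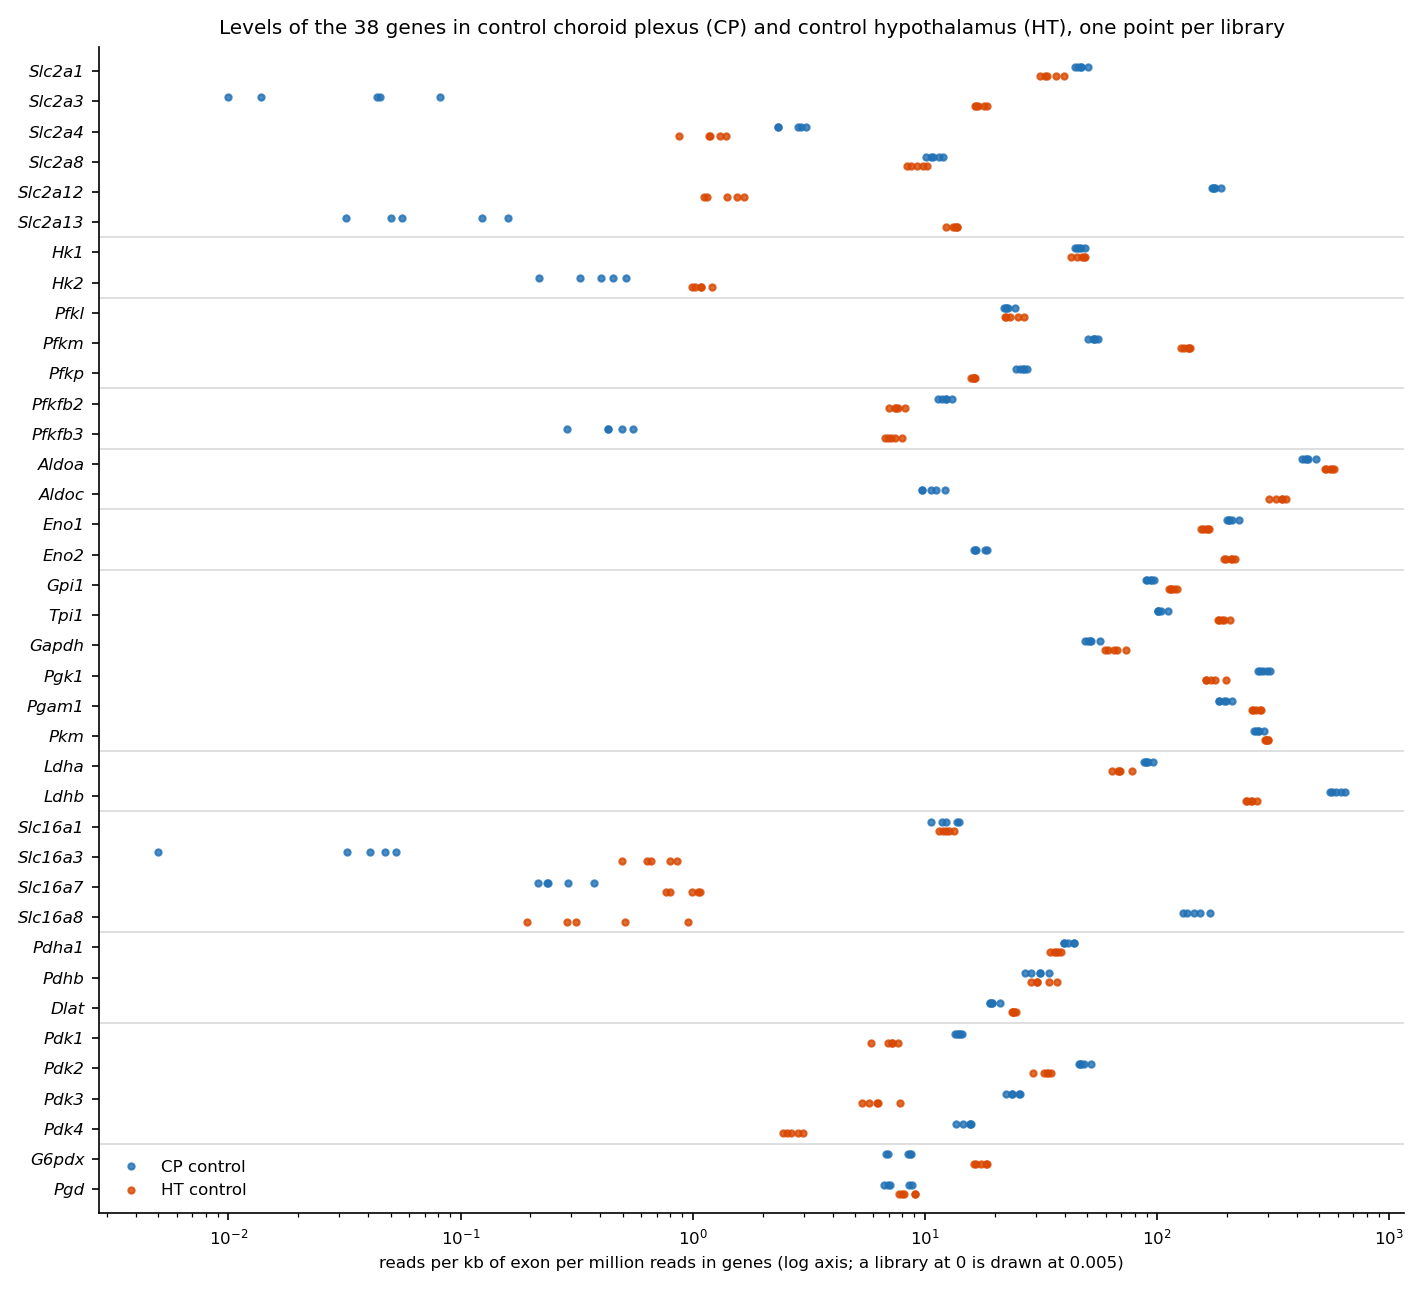
Reads per kilobase of exon per M reads in genes (horizontal log axis, with a library at 0 drawn at the left edge) for each of the 38 genes (rows, grouped by family) in the 5 control choroid plexus libraries (blue) and the 5 control hypothalamus libraries (orange). Slc2a12 and Slc16a8 lie far to the right in choroid plexus, Slc2a3, Slc2a13, Pfkfb3, Aldoc and Eno2 in hypothalamus, and most enzymes of the common path lie within 2-fold.

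The 6 glycolytic steps with a single listed gene were all within 2-fold between the tissues. Pgk1 (phosphoglycerate kinase) was higher in choroid plexus, at 272 to 306 reads per kb per M against 162 to 198. Gpi1 (89.1 to 96.9 against 112 to 122), Tpi1 (100 to 111 against 182 to 207), Gapdh (48.9 to 57 against 59.5 to 73.5), Pgam1 (184 to 209 against 255 to 281) and Pkm (260 to 289 against 291 to 300) were higher in hypothalamus. These genes encode glucose-6-phosphate isomerase, triosephosphate isomerase, glyceraldehyde-3-phosphate dehydrogenase, phosphoglycerate mutase and pyruvate kinase. Summed over the 6 genes the level was 1000 ± 37.9 in choroid plexus and 1110 ± 45.5 in hypothalamus (reads per kb per M, SD, n = 5 each). Gapdh, Pgk1, Pgam1, Ldha and Aldoa have processed copies elsewhere in the genome that can share reads, so their counts are uncertain to that extent. About 11.48% of the exon bases of Gpi1 lie opposite another gene's exons.

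Among the genes of lactate handling, the messages of the monocarboxylate transporters differed most, and the direction of lactate transport was not measured. Slc16a8 (MCT3, a lactate transporter known from the basolateral side of choroid plexus and retinal pigment epithelium; chr15:79251014-79254761, minus strand) was at 129 to 169 reads per kb per M in control choroid plexus and 0.193 to 0.955 in control hypothalamus. It made up 91.9% ± 1.09 of the 4 monocarboxylate transporters in choroid plexus and 3.08% ± 1.95 in hypothalamus. Slc16a1 (MCT1, found on endothelium and glia) had overlapping levels in the tissues, at 10.6 to 14.0 and 11.5 to 13.3, and led in hypothalamus with 85.7% ± 1.42. The summed level of the 4 was 159 ± 16.4 in choroid plexus and 14.5 ± 0.866 in hypothalamus. Slc16a7 (MCT2, a neuronal transporter) and Slc16a3 (MCT4, found on glycolytic cells) were at or below 1.07 in both tissues.

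Lactate dehydrogenase is a tetramer of subunits from Ldha, the muscle form, and Ldhb, the heart form. Ldhb led in both tissues, with 86.7% ± 0.588 in control choroid plexus and 78.5% ± 0.63 in control hypothalamus. Its level was 553 to 644 reads per kb per M in choroid plexus and 242 to 269 in hypothalamus, a ratio of 2.35 in reads per M. Ldha was at 88 to 96 and 63.6 to 78.

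Genes at the mitochondrial gate differed mainly in the kinases. The pyruvate dehydrogenase genes Pdha1 and Pdhb (E1 subunits) and Dlat (E2) summed to 91.8 ± 3.97 reads per kb per M in control choroid plexus and 92.8 ± 3.15 in control hypothalamus. The 4 kinases summed to 101 ± 2.95 and 48.8 ± 2.26, and each was higher in choroid plexus without overlap. Pdk4, the kinase induced by fasting and fatty acids, had the largest ratio, 5.59, at 13.6 to 15.8 against 2.44 to 2.99. Pdk3 had a ratio of 3.84, Pdk1 of 2.0 and Pdk2 of 1.46. Pdk2 led the kinases in both tissues, with 47.4% ± 1.22 in choroid plexus and 67.2% ± 1.82 in hypothalamus. In the pentose phosphate pathway, G6pdx (its first, NADPH-making enzyme) was at 6.8 to 8.74 and 16.2 to 18.6, and Pgd overlapped in reads per M, at 6.69 to 8.8 and 7.71 to 9.05. For Pdha1 and G6pdx, 16.15% and 13.57% of exon bases lie opposite another gene's exons.

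Promoter sequence is shown for 3 transporters that differed more than 10-fold between the tissues and for 2 enzymes of the common path. A RefSeq entry (GRCm38.p6) was found for 35 of the 38 genes. Up to 250 bases before the annotated start are printed 5′ to 3′ on the gene's strand, ending before any base of its annotated exons, in lower case, with 4 short motifs in capitals wherever they occur on either strand.
Slc2a12 (chr10:22644761-22645010, plus strand): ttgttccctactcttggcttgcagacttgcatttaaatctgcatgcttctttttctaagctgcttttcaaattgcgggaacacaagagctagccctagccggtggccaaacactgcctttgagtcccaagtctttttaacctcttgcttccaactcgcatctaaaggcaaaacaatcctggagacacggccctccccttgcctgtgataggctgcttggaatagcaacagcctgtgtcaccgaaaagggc
Slc16a8 (chr15:79254762-79254998, minus strand): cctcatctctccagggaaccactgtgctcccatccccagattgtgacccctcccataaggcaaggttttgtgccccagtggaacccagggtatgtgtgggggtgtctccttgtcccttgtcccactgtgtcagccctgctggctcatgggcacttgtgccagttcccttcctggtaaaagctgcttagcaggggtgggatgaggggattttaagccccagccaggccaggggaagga
Slc2a13 (chr15:91573262-91573511, minus strand): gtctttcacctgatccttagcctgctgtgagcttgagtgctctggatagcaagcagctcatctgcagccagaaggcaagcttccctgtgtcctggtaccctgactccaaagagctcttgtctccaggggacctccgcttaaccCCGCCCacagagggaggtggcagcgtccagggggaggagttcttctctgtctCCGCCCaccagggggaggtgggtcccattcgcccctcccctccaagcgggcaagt
Ldha (chr7:46845554-46845803, plus strand): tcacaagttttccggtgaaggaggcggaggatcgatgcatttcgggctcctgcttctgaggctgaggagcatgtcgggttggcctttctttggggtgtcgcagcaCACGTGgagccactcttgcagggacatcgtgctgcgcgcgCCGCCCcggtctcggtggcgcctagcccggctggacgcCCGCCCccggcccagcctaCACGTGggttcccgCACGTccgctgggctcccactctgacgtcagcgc
Pgk1 (chrX:106186850-106187099, plus strand): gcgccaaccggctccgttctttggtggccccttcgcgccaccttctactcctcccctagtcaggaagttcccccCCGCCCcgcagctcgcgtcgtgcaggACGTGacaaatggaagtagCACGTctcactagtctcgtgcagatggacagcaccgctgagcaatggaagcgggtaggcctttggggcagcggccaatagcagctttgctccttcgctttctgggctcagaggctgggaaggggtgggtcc
The motifs, chosen after seeing these sequences, were the core of the hypoxia response element (ACGTG), the GC box (GGGCGG), the TATA box (TATAAA) and the OTX core (TAATCC). A palindrome CACGTG counts as an ACGTG on both strands. Neither choroid plexus transporter held any of the 4 in these windows. Slc2a13 held 2 GC boxes. Ldha held ACGTG at 145, 48 and 34 bases before its start and GC boxes at 105 and 67. Pgk1 held ACGTG at 150 and 131 and a GC box at 176. The printed windows are examples and do not stand for transporters against enzymes. Slc16a3, a transporter also more than 10-fold apart, held a GC box at 48 and ACGTG at 27. The windows of the enzymes Gapdh and Tpi1, cut in the same way, held none of the 4. A second Ldha window (chr7:46846832-46847081) held only an OTX core, at 249.
Over the 250 bases before any annotated start of a gene, with exon bases kept, ACGTG was in 15 of 35 genes (42.9%), against 18.5% of the 27025 genes with an entry, and GGGCGG in 22 (62.9%) against 35.4%. TATAAA was in 1 (Eno2, 2.86%) against 14.3%, and TAATCC in 4 (11.4%) against 7.21%. A gene with more annotated starts had more chances of a match. Neither the number of starts nor the base content was matched between the 35 genes and the rest. These matches are a description of letters, and no factor's binding was measured.

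In choroid plexus, where Ins2 was overexpressed, none of the 38 genes was called as different from control. With limma on log2(value + 1) and Benjamini-Hochberg adjustment over all 14533 genes tested, 2 genes passed an adjusted p of 0.05 (0.0138%) and 0 of the 36 tested members did. Slc2a3 and Slc16a3 lay below the mean of 10 needed for testing. An unadjusted limma p under 0.05 was reached by 903 genes (6.21%) and by 0 members, and ranges of Ins2 and control did not overlap for 91 genes (0.626%) and 0 members. The edgeR and DESeq2 tests on recovered reads also called 0 members, although DESeq2 gave no adjusted p for 5 of them. The members' median log2 fold change was -0.02, with 13 above 0 and 23 below. Over all genes tested it was -0.01, with 7040 above 0 and 7493 below.

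Most intervals were narrow. For the enzymes Gpi1, Tpi1, Gapdh, Pgk1, Pgam1 and Pkm the log2 fold changes lay between -0.03 and 0.05, and the 95% interval of Pkm ran from 0.915 to 1.05 in fold. The fold of Slc2a12, the leading transporter, was 0.954 (95% interval 0.873 to 1.04), that of Ldhb 0.997 (0.927 to 1.07) and that of Slc16a8 1.03 (0.928 to 1.14). Each of these 3 led its family in control choroid plexus. Intervals were wide for low genes, as for Slc2a13, with a fold of 1.58 (0.87 to 2.85) and control values of 12.4, 31.0, 40.2, 7.92 and 14.0 scaled reads against 34.8, 22.3, 29.6, 17.8, 31.1 and 43.1 with Ins2.

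Pfkfb2, which makes most of the choroid plexus PFKFB message, had the smallest limma p. Its scaled reads were 2444, 2684, 2692, 2547 and 2830 in controls 1 to 5 and 2342, 2689, 2480, 2487, 2339 and 2266 in Ins2 replicates 1 to 6. The groups overlapped, with 5 of 6 Ins2 libraries below the control median. The log2 fold change was -0.12 ± 0.06 (SE; limma p = 0.054, adjusted p = 0.804; exact permutation p = 0.0519, two-sided). Aldoc was next, at -0.15 ± 0.08 (limma p = 0.076, adjusted p = 0.823; exact permutation p = 0.106), and without control replicate 2 it was -0.10 (limma adjusted p = 0.958). The insulin-responsive transporter Slc2a4 was at 316, 244, 306, 291 and 242 in controls and 217, 225, 229, 260, 306 and 269 with Ins2, a log2 fold change of -0.16 ± 0.12 (limma adjusted p = 0.895). Of the 5 sugar transporters tested, 4 had values below 0. By the exact test the smallest p was that of Dlat, the E2 subunit, at 2804, 2787, 3110, 2798 and 2788 in controls and 2870, 3079, 2958, 3120, 3090 and 3074 with Ins2. Control replicate 3 lay within the Ins2 range and the other 4 controls below it (log2 fold change 0.09 ± 0.05, limma adjusted p = 0.839; exact permutation p = 0.0411, not adjusted over genes). All 3 pyruvate dehydrogenase genes were above 0 and all 4 kinases below, with no limma p under 0.05 among them. Pdha1 was close to 0, at 0.005 ± 0.047. Its sign turned in 4 of 19 alternative settings and that of Pdhb in 1, while those of Dlat and the kinases did not turn.

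**Figure D3:**
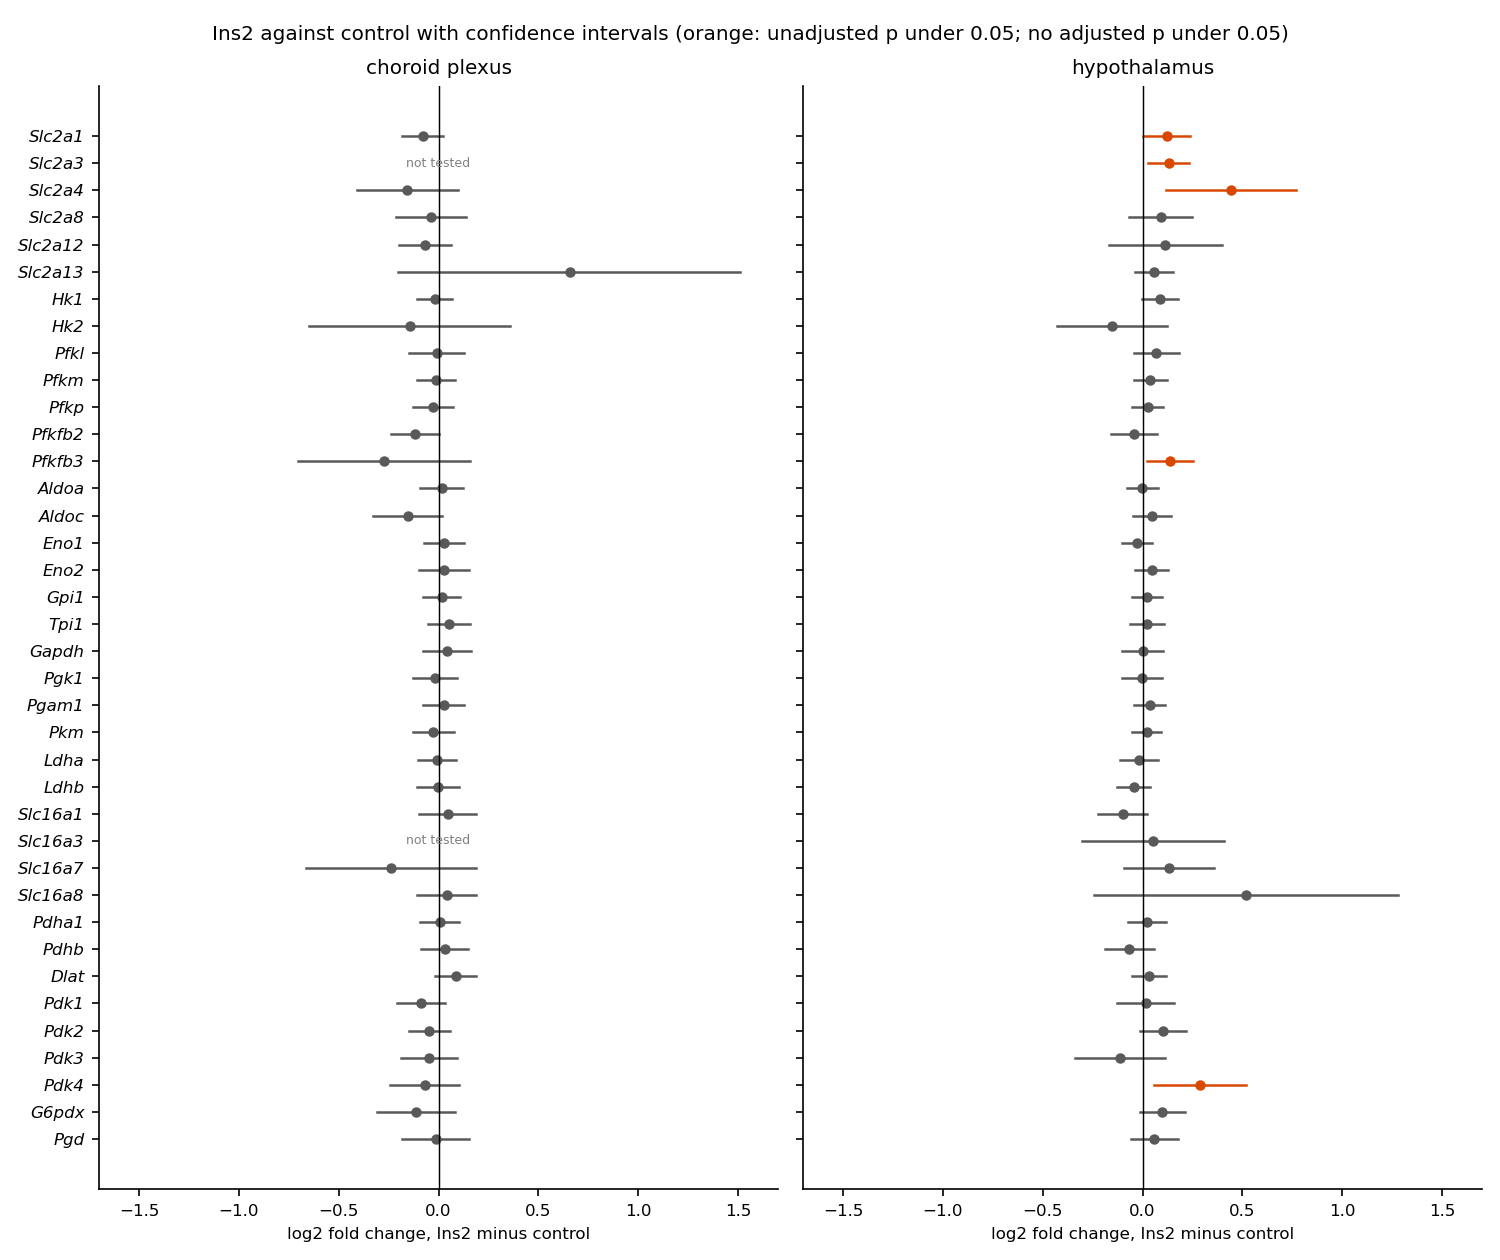
Log2 fold change of Ins2 against control (points) with 95% intervals (lines) for the 36 tested genes in choroid plexus (left) and all 38 in hypothalamus (right). Every choroid plexus interval includes 0, and in hypothalamus Slc2a1, Slc2a3, Slc2a4, Pfkfb3 and Pdk4 (orange) lie above 0 at an unadjusted limma p under 0.05, none with an adjusted p under 0.05.

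In hypothalamus no member passed the adjusted test either, and the smallest limma p-values were those of 3 of the 6 sugar transporters and of 2 regulators, Pfkfb3 and Pdk4. After adjustment over 16363 genes, limma called 0 genes (0.0%) and 0 of the 38 members. At an unadjusted limma p under 0.05 there were 1624 genes (9.92%) and 5 members (13.2%), all with the higher mean in Ins2: Slc2a1, Slc2a3, Slc2a4, Pfkfb3 and Pdk4. The share of members is near the background, so their number is not a result about these genes. By the exact permutation test Slc2a1 was not under 0.05, and Dlat (p = 0.0317) and G6pdx (p = 0.0476) were. The ranges did not overlap for 245 genes (1.5%) and for 0 members. The edgeR test called 0 genes, and DESeq2 40, none a member, with 9 members given no adjusted p. The median of the members was 0.04, with 28 above 0 and 10 below. Over all genes it was 0.00, with 8234 above 0 and 8129 below.

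Slc2a4 (chr11:69942539-69948188, minus strand) was at 171, 107, 144, 145 and 162 scaled reads in control replicates 1, 2, 3, 4 and 6, and at 166, 245, 178, 190 and 212 in Ins2 replicates 1 to 5. Only Ins2 replicate 1 fell within the control range. The fold was 1.36 (95% interval 1.09 to 1.7; limma p = 0.00978, adjusted p = 0.378; exact permutation p = 0.0159). Slc2a3 (chr6:122727809-122801640, minus strand) was at 4228, 4593, 4328, 4169 and 4771 in control and at 4483, 4955, 5039, 4890 and 4788 with Ins2. Of the Ins2 libraries, 4 lay above every control. Its fold was 1.09 (1.02 to 1.17; limma p = 0.0148, adjusted p = 0.396; exact permutation p = 0.0317).

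Slc2a1 (chr4:119108711-119137983, plus strand) was at 3879, 4139, 4874, 4031 and 4583 in control and 4539, 4580, 4777, 4627 and 4765 with Ins2. The control range contained all 5 Ins2 values, and the controls spread more widely (SD 413.9 against 108.1). The log2 fold change was 0.12 ± 0.06 (SE; limma p = 0.0428, adjusted p = 0.488; exact permutation p = 0.135), and the unadjusted p was 0.142 without control replicate 1. All 6 sugar transporters of the fixed list had log2 fold changes above 0, from 0.06 (Slc2a13) to 0.44 (Slc2a4). This did not extend to sugar transporters outside that list. Of 6 others tested in hypothalamus, 2 were above 0 and 4 below, with a median log2 fold change of -0.107.

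Pdk4 (chr6:5483351-5496309, minus strand) was at 350, 314, 328, 301 and 372 scaled reads in control and 324, 397, 398, 448 and 477 with Ins2. Ins2 replicate 1 again lay within the controls and the other 4 above them. The fold was 1.22 (1.04 to 1.43; limma p = 0.0175, adjusted p = 0.403; exact permutation p = 0.0476). Pfkfb3 (chr2:11471433-11554077, minus strand) was at 1974, 2128, 1904, 1786 and 1865 in control and 2160, 2213, 2084, 2022 and 2124 with Ins2, where control replicate 2 reached into the Ins2 range. Its fold was 1.10 (1.02 to 1.19; limma p = 0.0223, adjusted p = 0.428; exact permutation p = 0.0317), and its share of the PFKFB pair was 48.9% in control and 52.0% with Ins2. Of the other kinases, Pdk2 was at 0.10 ± 0.06 on the log2 scale, Pdk1 at 0.01 ± 0.07 and Pdk3 at -0.11 ± 0.11.

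**Figure D4:**
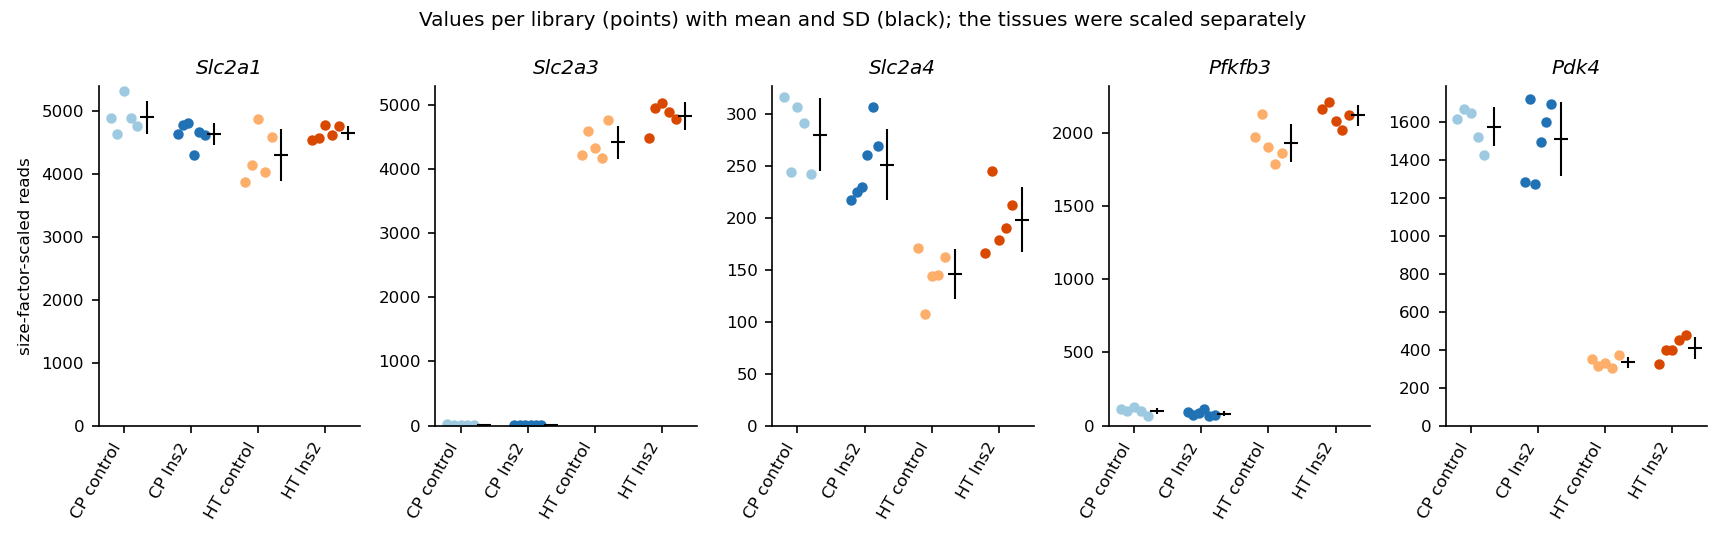
Size-factor-scaled reads per library (points, replicates in order from left to right) with mean and SD (black) in the 4 groups for the 5 genes with an unadjusted limma p under 0.05 in hypothalamus. In hypothalamus (HT) the Ins2 mean is higher for each gene and the groups overlap, and in choroid plexus (CP) Slc2a3 is near 0.

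The enzymes of the common glycolytic path lay near 0 in hypothalamus. Aldoa had a log2 fold change of -0.00 ± 0.04, Gapdh 0.00 ± 0.05, Pgk1 -0.00 ± 0.05 and Pkm 0.02 ± 0.03, and the interval of Pkm in fold was 0.965 to 1.06. Both lactate dehydrogenase genes were below 0, at -0.02 ± 0.05 for Ldha and -0.04 ± 0.04 for Ldhb. Hk1 was at 0.09 ± 0.04 (limma adjusted p = 0.514) and G6pdx at 0.10 ± 0.05 (limma adjusted p = 0.565). Slc16a1, the leading monocarboxylate transporter there, was at -0.10 ± 0.06 (limma adjusted p = 0.594).

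For none of the 27 genes in the 9 families did the shares of Ins2 and control libraries separate in either tissue. The widest difference in means was 3.1 percentage points, for Pfkfb3 against Pfkfb2 in hypothalamus, and the next was -2.28 points for Slc16a1 in hypothalamus. These shares do not depend on the size factors.

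The difference between the tissues in the effect of Ins2 was tested by subtracting the choroid plexus log2 fold change from that in hypothalamus. The test treats the tissues as independent samples. Whether both tissues came from the same mice is not stated, and its p-values would be off if they did. Of 13997 genes tested in both tissues, 15 passed after adjustment (0.107%) and 1484 without it (10.6%). Among the 36 members, 0 passed after adjustment and 5 without: Slc2a1, Slc2a4, Aldoc, Pdk2 and Pdk4, each with the higher value in hypothalamus. Slc2a4 had the smallest adjusted p, 0.247, with a log2 fold change of -0.16 in choroid plexus and 0.44 in hypothalamus. Pdk4 was at -0.07 and 0.29 (difference 0.36 ± 0.14, limma adjusted p = 0.342). The number of genes called depends on single libraries, from 2 to 44 with 1 library left out, while that of members stayed at 0. The sign was opposite in the tissues for 21 of the 36, many of them with log2 fold changes near 0. The same count was not made over all genes, so it is not read as a result.

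Genes around the pathway were read from a list of 102 other genes of sugar transport, glycolysis, pyruvate, glycogen, the pentose phosphate route, its regulators and the hypoxia response, of which 100 were in the tables. In choroid plexus 0 of 89 tested were called by limma, with 3 higher and 6 lower at an unadjusted limma p under 0.05 (10.1%, against 6.21% of all genes). In hypothalamus 0 of 94 were called, with 3 higher and 2 lower (5.32%, against 9.92%). The genes named next are those of smallest p in each direction, and none passed the adjusted test. The smallest p among those higher in choroid plexus belonged to Mpc1, a subunit of the mitochondrial pyruvate carrier, at 2120 to 2330 scaled reads in control and 2370 to 2760 with Ins2. Its ranges did not overlap, and its log2 fold change was 0.18 ± 0.06 (limma adjusted p = 0.528). The exact permutation p, not adjusted over genes, was 0.00216, which no split of these groups can go below. Ranges did not overlap for 1 of the 89 pathway genes tested, against 0.626% of all genes. Pgm2, a phosphoglucomutase, followed at 0.26 ± 0.11 (limma adjusted p = 0.754). Among those lower, Prkaa2, a catalytic subunit of AMP-activated kinase, was at -0.21 ± 0.08 (limma adjusted p = 0.718) and Gpd2, the mitochondrial glycerol-3-phosphate dehydrogenase, at -0.18 ± 0.07 (0.729).

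In hypothalamus the smallest p among the higher genes were those of Esrra, a nuclear receptor that regulates mitochondrial genes (0.25 ± 0.07, limma adjusted p = 0.317), and Vegfa, a growth factor of the hypoxia response (0.15 ± 0.06, 0.397). Among the lower genes they were those of Pygl, liver-type glycogen phosphorylase, and Arnt, the partner of the hypoxia-inducible factors (-0.15 ± 0.06, limma adjusted p = 0.388). Pygl was at 520 to 570 scaled reads in control and 409 to 513 with Ins2, without overlap (-0.25 ± 0.09, limma adjusted p = 0.374). Its exact permutation p of 0.00794, not adjusted over genes, is the lowest possible for 5 against 5. Ranges did not overlap for 1 of the 94 pathway genes tested, against 1.5% of all genes. Of the hypoxia-response genes, 8 of 12 tested were above 0 in each tissue, with medians of 0.02 in choroid plexus and 0.01 in hypothalamus.

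Some libraries stood high or low in many glycolytic enzymes at once. Over 12 genes (the aldolases, enolases, lactate dehydrogenases and the 6 single-gene steps), Ins2 choroid plexus replicate 2 was the lowest of its group in 9, with a median deviation of -0.13 from the group's median on the log2 scale. Control choroid plexus replicate 1 was the highest of its group in 8 (median 0.07). In hypothalamus, control replicate 4 was the highest of the controls in 9 of 12, with a median of 0.06 and up to 0.21 for Pgk1. Leaving control replicate 4 out gave log2 fold changes of 0.45 for Slc2a4, 0.11 for Slc2a3, 0.10 for Slc2a1, 0.25 for Pdk4 and 0.11 for Pfkfb3, each above 0, and the limma adjusted p was at least 0.491 for all 5.

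**Figure D5:**
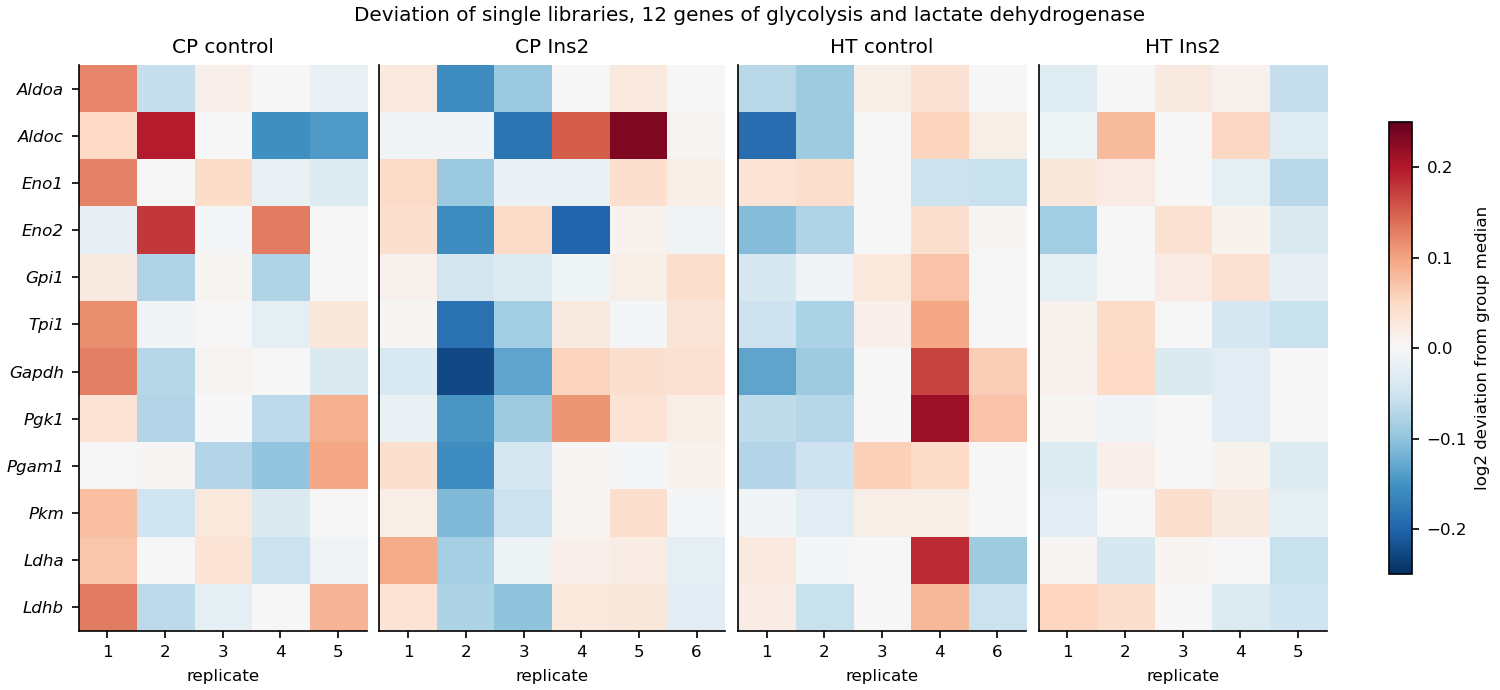
Log2 deviation of each library (columns, by replicate) from the median of its own group for 12 genes of glycolysis and lactate dehydrogenase (rows), in blue where lower and red where higher. Ins2 choroid plexus replicate 2 is low and control hypothalamus replicate 4 is high across most rows.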

How the data were processed

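RNA was isolated from choroid plexus and hypothalamus, poly(A) RNA was selected and directional libraries were sequenced, per the labels' protocols. HISAT2, featureCounts and DESeq2 and the builds GRCm38 and mm10 are named in the submitters' processing notes, without versions, and the strand setting of counting is not given in the sources used here. The deposited signal values are gene counts that the authors divided by 1 size factor per library, in a separate table for each tissue. Undoing that division turned 100.0% of the values of each library into whole numbers, to within 0.02.

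Ins2 and control were compared within each tissue by limma 3.58.1 in R 4.3.3 on log2(value + 1), letting the prior variance follow the mean, for genes with a mean of at least 10, with Benjamini-Hochberg adjustment over all genes tested and a threshold of 0.05. A fold change is thus on the log2(value + 1) scale, which understates the change of low genes. On recovered reads, edgeR 4.0.16 called 2 genes in choroid plexus and 0 in hypothalamus, and DESeq2 1.42.0 called 25 and 40. Exact two-sided permutation tests were run over 462 and 252 splits. The tissues' effects were compared by the difference of their moderated estimates.

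Exon lengths came from GENCODE M21. The 38 genes, the pathway list and the marker lists were chosen with earlier results of these data known. All 38 are accounted for, with full values for those with an unadjusted limma p under 0.05 and for family leaders. Of the pathway list, the 2 smallest p-values per direction and tissue are named. The alternatives were other pseudocounts, filters, scalings and tools, a replicate block, left-out libraries and other gene lengths. The longest coding transcript as length, the left-out libraries of the tissue comparison and the promoter motifs were chosen after seeing the data.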

Additional observations from a re-analysis of the deposited data

Results flagged for a closer look

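In 6 of 152 sets of values (1 gene in 1 group) a single library stood apart from the rest of its group by Dixon's criterion, which chance meets in about 1 of 20. Slc2a1 was at 4310 scaled reads in Ins2 choroid plexus replicate 4, against 4620 to 4800 in the others. Pfkl was at 3690 in Ins2 choroid plexus replicate 2, against 4520 to 4920. G6pdx was at 823 in Ins2 choroid plexus replicate 6, against 597 to 670. In control choroid plexus replicate 3, Slc2a12 was at 24100 against 21900 to 22200 and Dlat at 3110 against 2790 to 2800. Pdk3 was at 406 in Ins2 hypothalamus replicate 4, against 541 to 564.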

How the results depend on the processing

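No member was called under any of the 19 alternatives in choroid plexus or the 18 in hypothalamus. The number of genes called in choroid plexus, 2, became 25 under DESeq2 and 1 under the stricter mean filter of 50, and ranged from 1 (without control replicate 4, Ins2 replicate 1 or Ins2 replicate 4) to 4 (without Ins2 replicate 5). In hypothalamus the 0 calls became 40 with DESeq2 and 57 with a replicate block, and ranged from 0 to 18 with 1 library left out (18 without control replicate 6, 1 without control replicate 4). Same-numbered samples had correlations of -0.261 to 0.249 and only choroid plexus replicate 1 correlated best with its own number. Nothing states that the numbers pair the samples, and these few correlations cannot decide whether they do. The block left the 2 calls in choroid plexus at 2. Members with an unadjusted model p under 0.05 numbered 0 to 2 in choroid plexus and 3 to 8 in hypothalamus, and Slc2a3 and Slc2a4 were among them in every hypothalamus setting.

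The 15 calls of the tissue comparison became 2 without control choroid plexus replicate 3 or Ins2 hypothalamus replicate 3 or 5, 3 without Ins2 hypothalamus replicate 2 or 4, 4 without control hypothalamus replicate 1 and 44 without control hypothalamus replicate 6. They became 6 and 7 without Ins2 replicate 6 and control replicate 4 of choroid plexus, 8 without control hypothalamus replicate 4, and 25, 26 and 29 without control replicate 1, Ins2 replicate 2 and Ins2 replicate 4 of choroid plexus. The cause was not tested.

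Without division by length the choroid plexus shares were 17.1% for Slc2a1, 78.2% for Slc2a12, 26.1% for Pfkm, 97.4% for Aldoa, 93.3% for Eno1, 6.73% for Eno2, 75.5% for Ldhb, 14.2% for Slc16a1, 84.9% for Slc16a8 and 40.4% for Pdk2. The hypothalamus shares were 30.6% for Slc2a1, 98.4% for Hk1, 54.3% for Pfkm, 59.5% for Aldoa, 47.4% for Eno1, 52.6% for Eno2, 63.3% for Ldhb, 77.7% for Slc16a1 and 56.5% for Pdk2. With the longest coding transcript as length the choroid plexus shares were 71.8% for Slc2a12, 99.6% for Hk1, 33.0% for Pfkm, 98.5% for Aldoa, 95% for Eno1, 4.97% for Eno2, 81.1% for Ldhb, 6.39% for Slc16a1, 93.4% for Slc16a8 and 50.8% for Pdk2. In hypothalamus they were 36.2% for Slc2a1, 1.36% for Slc2a12, 98.8% for Hk1, 62.0% for Pfkm, 72.6% for Aldoa, 55.4% for Eno1, 44.6% for Eno2, 70.6% for Ldhb and 83.7% for Slc16a1.

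Signs of uncalled log2 fold changes near 0 turned in 32 of 683 values in choroid plexus and 22 of 683 in hypothalamus. Equal totals per library moved the median of all genes to 0.017 in choroid plexus and -0.013 in hypothalamus, and gave 0.003 for Hk1, 0.011 for Pfkl, 0.008 for Pfkm, 0.002 for Pgk1, 0.013 for Ldha, 0.017 for Ldhb and 0.007 for Pgd in choroid plexus. In the same tissue edgeR gave 0.0 for Pfkl and 0.001 for Ldhb. In hypothalamus Gapdh was at -0.013 with equal totals, -0.001 with edgeR and -0.002 with DESeq2, and the replicate block gave 0.016 for Aldoa and 0.005 for Pgk1. With 1 library left out, choroid plexus ranges were -0.003 to 0.042 (Aldoa), -0.027 to 0.008 (Ldha), -0.027 to 0.022 (Ldhb), -0.013 to 0.023 (Pdha1), -0.008 to 0.069 (Pdhb), -0.036 to 0.047 (Pfkl), -0.058 to 0.037 (Pgd), -0.045 to 0.007 (Pgk1), -0.012 to 0.089 (Slc16a1), -0.001 to 0.091 (Slc16a8) and -0.076 to 0.01 (Slc2a8). Hypothalamus ranges were -0.018 to 0.014 (Aldoa), -0.032 to 0.043 (Gapdh), -0.046 to 0.023 (Ldha), -0.049 to 0.05 (Pdk1), -0.03 to 0.042 (Pgk1) and -0.06 to 0.141 (Slc16a3). Depth limits the genes of few reads, Slc2a3, Slc2a13 and Slc16a3 in choroid plexus and Slc16a8 in hypothalamus.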
